A study of Arabidopsis thaliana with 12 samples.

Results

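The comparison described here sets the ssi2 act1 double mutant of Arabidopsis thaliana directly against the ssi2 sid2 double mutant, 3 arrays against 3. It takes 6 of the 12 Affymetrix arrays of the study and all 22746 of its 22810 probe sets that are not controls. Both groups carry the ssi2 mutation, so the comparison holds that mutation fixed and exchanges the second one, act1 for sid2. The other 6 arrays are of wild-type Col-0 and of the ssi2 single mutant, and they are used to estimate the spread and to place the double mutants. All RNA came from leaves, labelled as 4 weeks old, of plants grown in a chamber at 22 degrees C, 65% relative humidity and 14 hours of light. The labels give no treatment, no hour of harvest, no number of pooled plants and no mutant alleles, and they do not say whether the replicates were grown apart. The sample titles call the arrays of each genotype biological replicates, without saying how their plants were kept separate. Each p-value rests on the scatter among such replicates, and how much of that scatter is technical is not known.

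SSI2 encodes the plastid desaturase that turns stearic into oleic acid, and its loss lowers oleic acid, stunts the plant, raises salicylic acid and defence genes and dampens part of the jasmonate response. ACT1 encodes the plastid acyltransferase that puts oleic acid onto glycerol 3-phosphate, and losing it in an ssi2 plant is known to restore oleic acid and most wild-type traits. SID2 encodes the isochorismate synthase that makes most salicylic acid in infected leaves, and losing it removes that hormone while oleic acid remains low. None of the 3 mutated genes is paired alone with a probe set in the annotation given, and they were not analysed here. For that reason the genotypes could not be checked against their own transcripts.

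Within the 4 genotypes the pairwise Pearson's r of arrays, over all probe sets, was 0.914 to 0.982. The first principal component of all 12 arrays held 31.68% of the variance and put ssi2 act1 (-55.1 to -44.0) beside wild type (-57.4 to -51.0), and ssi2 sid2 (26.1 to 53.9) on the side of ssi2 (34.6 to 81.0). Wild type replicate 2 stood apart on the third component, at -98.8 against 22.6 and 36.2 for its group. On the second, ssi2 replicate 3 lay at -92.9, against -2.50 and -28.8 for the rest of ssi2. On the second component ssi2 sid2 replicate 2 lay at 7.38, against 59.1 and 60.4 for the other two arrays of that genotype. Of the probe sets called different between the double mutants, this array was the one of its genotype nearest to the ssi2 act1 mean in 981 of 1456, or 67.4%. Of 4 RNA measures, 2 differed without overlap. The 3′ to 5′ signal ratio of the GAPDH control was 1.61 to 2.75 in ssi2 act1 and 1.39 to 1.47 in ssi2 sid2, and the 25S rRNA control signal was 276 to 352 and 174 to 216. The other 2 overlapped, a second GAPDH ratio at 0.912 to 1.28 and 0.914 to 0.982 and the 5S rRNA signal at 56.6 to 189 and 53.4 to 66.7. Their part in the results was not tested.

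Of the 12 largest differences in each direction, over genes with a probe set of their own, 11 on the ssi2 act1 side and 9 on the ssi2 sid2 side were at loci that the annotation gives no name. Among genes of the lists below, the light-response factor HYH, the defensin PDF1.2b, the flavonoid enzyme UGT78D2 and the amylase AMY1 were higher in ssi2 sid2, and the cold-regulated gene COR15A and the glycosyltransferase UGT85A4 were higher in ssi2 act1. On log2(signal + 16), with limma across all 12 arrays and Benjamini-Hochberg adjustment over 22746 probe sets, 555 probe sets were higher in ssi2 act1 and 901 were higher in ssi2 sid2 at an adjusted p under 0.05, which is what called means below. These are 2.44% and 3.96% of all probe sets and 6.40% together. The arrays of the double mutants did not overlap in 1455 of the 1456 calls, against 26.7% of everything tested. Differences are given as ssi2 act1 minus ssi2 sid2, so a positive value is a higher level in ssi2 act1. A bracket after a gene holds its log2 difference and its adjusted p from this fit. Differences of at least 3 were more frequent on the ssi2 sid2 side, with 162 called probe sets against 33.

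The counts depended on single arrays. Without ssi2 sid2 replicate 1, 142 probe sets were higher in ssi2 act1 and 343 higher in ssi2 sid2, and without its replicate 3 the counts were 103 and 313. Without ssi2 act1 replicate 2 they were 211 and 474, and without its replicate 3 they were 220 and 501. Leaving out ssi2 sid2 replicate 2, the array that stood nearest to ssi2 act1, gave 581 and 832. Centring each array on its median moved the median of all 22746 differences from 0.01 to 0.15 and the counts to 724 and 699, so that 50.9% of calls were higher in ssi2 act1 in place of 38.1%. The excess of calls on the ssi2 sid2 side was therefore absent with that scaling. It was also smaller in other fits. With quantile normalization 44.1% of calls were higher in ssi2 act1, and with array weights on the deposited scaling 48.9%. Of 13350 genes with a probe set of their own, 334 (2.5%) were called higher in ssi2 act1 and 431 (3.23%) higher in ssi2 sid2, or 5.73% in all, with a median difference over all genes of 0.03. The gene lists below are read against these shares. Other settings under which a gene lost its call are named beside it: pseudocounts of 1 and 64 in place of 16, median centring, quantile normalization, a fit of the 6 compared arrays alone, the replicate number as a block, and a trended and robust variance prior.

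**Figure D1:**
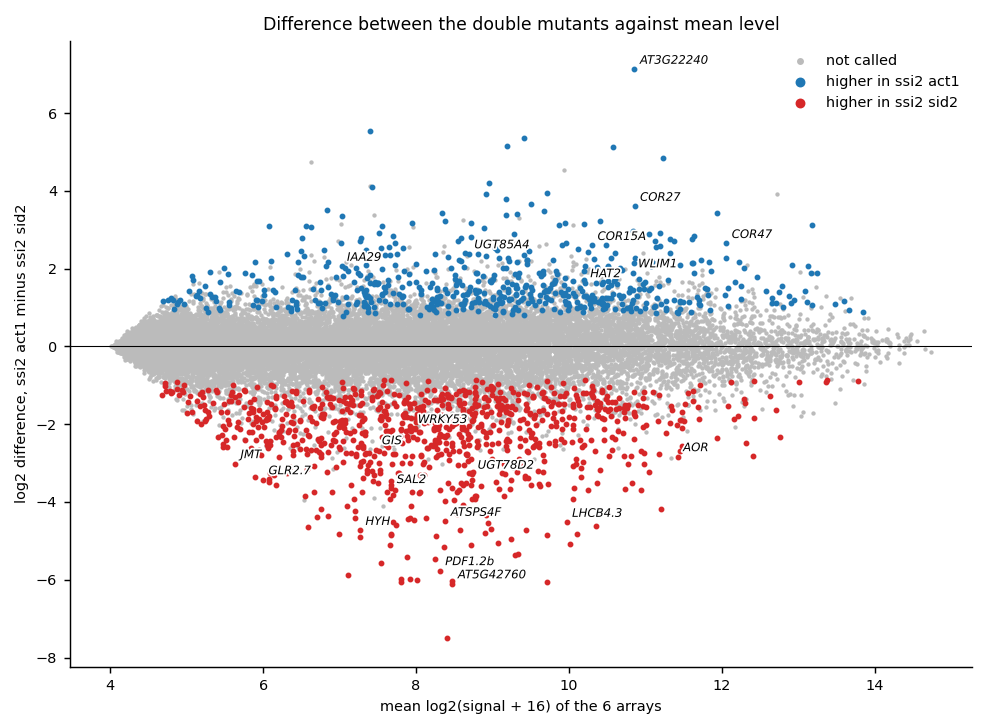
Log2 difference between ssi2 act1 and ssi2 sid2 (y axis) against the mean log2(signal + 16) of the 6 arrays (x axis), 1 point per probe set, grey where not called. The 555 blue probe sets were higher in ssi2 act1 and the 901 red ones higher in ssi2 sid2, with the largest named difference at AT3G22240 (7.13).

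Of 4 measured light-signalling genes 2 were called higher in ssi2 act1 and 1 higher in ssi2 sid2. HYH, a bZIP factor close to HY5 that promotes light-induced transcription, had signals of 789, 531 and 1120.2 in the 3 ssi2 sid2 arrays and 35.0, 4.44 and 9.63 in the 3 ssi2 act1 arrays. Every ssi2 sid2 array was thus far above every ssi2 act1 array, and the difference was -4.73 (SE 0.70), with an adjusted p of 0.00377 in limma. It was called in each of the alternative fits and with each array left out. Wild type was low too, at 5.22 to 95.0, and ssi2 ranged from 119.5 to 755.

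HAT2, a homeodomain factor induced by auxin and by shade, ran the other way. Its signals were 2039.7, 1978 and 2211 in ssi2 act1 and 512, 1058 and 514 in ssi2 sid2, a difference of 1.64 (SE 0.39), with an adjusted p of 0.0302. The 2 genotypes did not overlap, and ssi2 sid2 replicate 2 was the highest array of its group. FHL, which helps to carry phytochrome A into the nucleus, gave 111, 145 and 82.0 in ssi2 act1 against 36.7, 41.9 and 39.3 in ssi2 sid2, again without overlap (1.19, adjusted p = 0.0373). The call of HAT2 was lost without ssi2 act1 replicate 1, 2 or 3 or ssi2 sid2 replicate 1 or 3 (0.0666 to 0.139 as adjusted p) and with a pseudocount of 1 (0.0561). That of FHL was lost without ssi2 act1 replicate 1, 2 or 3 or ssi2 sid2 replicate 1, 2 or 3 or wild type replicate 1 (0.052 to 0.131 as adjusted p) and with a pseudocount of 64 (0.0729).

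The 4 came from 91 names searched, aliases included, and had a median difference of 0.46. The fourth, the light-harvesting-like protein LIL3:1, was not called. AFR, an F-box protein of phytochrome A signalling, was chosen after its values were seen. It had 1057, 485 and 1077 in ssi2 sid2 and 74.0, 53.4 and 80.0 in ssi2 act1, higher in every ssi2 sid2 array (-3.31, adjusted p = 0.017). AFR lost its call without ssi2 act1 replicate 2 or 3 or ssi2 sid2 replicate 1 or 3 (0.0529 to 0.0874 as adjusted p).

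Of 17 measured photosynthesis genes 1 was called in each direction, and the largest difference was in an antenna gene. LHCB4.3, a minor antenna protein of photosystem II, had signals of 8541, 1512 and 8487 in ssi2 sid2 and 151, 304 and 156 in ssi2 act1. All ssi2 sid2 arrays were higher, replicate 2 by the least, and the difference was -4.52 (SE 0.86), with an adjusted p of 0.0102. LHCB4.3 lost its call without ssi2 sid2 replicate 1 or 3 (0.0576 and 0.0618 as adjusted p). The closely related LHCB4.1 (0.14, adjusted p = 0.874) and LHCB4.2 (0.58, adjusted p = 0.319) were not called. The 2 calls compare with 2.5% and 3.23% of all genes, and the median of the list was -0.13. The gene called higher in ssi2 act1 was ATPC2, a gamma subunit of the plastid ATP synthase (0.86, adjusted p = 0.0444), and ATPC2 lost its call without ssi2 act1 replicate 1, 2 or 3 or ssi2 sid2 replicate 1 or 3 or ssi2 replicate 2 or wild type replicate 1 or 3 (0.0593 to 0.177 as adjusted p) and with the 6 arrays alone, a pseudocount of 1, the replicate block or the trended prior (0.0626 to 0.0953). The list's summed signal was 130589 to 147257 in ssi2 act1 and 152370 to 177107 in ssi2 sid2.

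Of 9 measured flavonoid genes 3 were called, and all 3 were higher in ssi2 sid2. CHIL, a chalcone-isomerase-like protein that raises flavonoid output, had signals of 2159, 239 and 2404 in ssi2 sid2 and 27.6, 9.56 and 104 in ssi2 act1. UGT78D2, which adds glucose to flavonols and anthocyanidins, had 1847, 642 and 1904 in ssi2 sid2 and 87.5, 151 and 132 in ssi2 act1. UGT78D1, which adds rhamnose to flavonols, had 1950.2, 291 and 2056 in ssi2 sid2 and 103, 164 and 87.8 in ssi2 act1. In each of the 3 genes ssi2 sid2 replicate 2 was the lowest of its genotype, and it still exceeded all ssi2 act1 arrays. The differences were -4.43 (SE 0.98), with an adjusted p of 0.0216, for CHIL, -3.28 (SE 0.56), with an adjusted p of 0.00657, for UGT78D2 and -3.04 (SE 0.77), with an adjusted p of 0.0381, for UGT78D1. UGT78D2 was called in every alternative fit. CHIL lost its call without ssi2 act1 replicate 1 or 2 or ssi2 sid2 replicate 1 or 3 (0.0577 to 0.111 as adjusted p), and UGT78D1 lost its call without ssi2 act1 replicate 1, 2 or 3 or ssi2 sid2 replicate 1 or 3 or ssi2 replicate 2 or wild type replicate 1 or 3 (0.0507 to 0.175 as adjusted p) and with a pseudocount of 1 or quantile normalization (0.0626 and 0.0545). The 9 came from 86 names searched, and all 9 differences were below 0, with a median of -0.93. The later enzymes were at low signals and not called, as for dihydroflavonol reductase DFR (-0.91, adjusted p = 0.424) and the anthocyanin xylosyltransferase UF3GT (-0.63, adjusted p = 0.633).

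The UGT78D genes belong to the UDP-glycosyltransferases, which attach sugars to hormones, flavonoids and foreign compounds, and family members were called in both directions. Of 51 measured, 8 (15.7%) were called higher in ssi2 sid2 and 2 (3.92%) higher in ssi2 act1, with a median of -0.05. The family was matched by the start of the name, so members at loci that the annotation gives no name were not counted. The 8 became 5 without ssi2 act1 replicate 2 or 3 or ssi2 sid2 replicate 1 and with a pseudocount of 1, and 4 without ssi2 sid2 replicate 3. GT72B1, which glucosylates monolignols and chlorinated phenols, had 2376, 1088 and 2103 in ssi2 sid2 and 151, 179.9 and 106 in ssi2 act1 (-3.48, adjusted p = 0.0036), and UGT71B1 differed by -2.39 (SE 0.37). UGT87A2 was also higher in ssi2 sid2 (-2.33, adjusted p = 0.0398), and UGT87A2 lost its call without ssi2 act1 replicate 2 or 3 or ssi2 sid2 replicate 1, 2 or 3 or ssi2 replicate 2 or wild type replicate 1 (0.0521 to 0.141 as adjusted p) and with a pseudocount of 1 or the replicate block (0.0653 and 0.0564).

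The 2 family members higher in ssi2 act1 were close relatives. UGT85A4 had signals of 1013, 976 and 811 in ssi2 act1 against 150.1, 263 and 112 in ssi2 sid2 (2.39, adjusted p = 0.0036), and UGT85A5 had 1035, 760.5 and 663 against 143, 253 and 109.7 (2.23, adjusted p = 0.00456). Neither overlapped between the genotypes, and both were also above wild type, which lay at 113 to 245 and 303 to 465. Relatives of this subfamily can share probe signal, and how far they did was not tested. In the cytochrome P450 family, 1 of 23 measured was called, CYP71B36, higher in ssi2 sid2 (-2.15, adjusted p = 0.00733).

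Of 12 measured genes of jasmonate signalling and response 3 were called, and all 3 were higher in ssi2 sid2, led by defensins. PDF1.2b, a plant defensin induced by jasmonate with ethylene, had signals of 2373, 6155 and 853 in ssi2 sid2 and 29.6, 36.2 and 18 in ssi2 act1. Its close relative PDF1.2, the usual marker of that response, had 2244, 6945 and 472 in ssi2 sid2 and 25.8, 74.7 and 28.1 in ssi2 act1. For both, every ssi2 sid2 array was above every ssi2 act1 array, and here replicate 2 was the highest of its group rather than the lowest. The differences were -5.76 (SE 0.82), with an adjusted p of 0.00337, for PDF1.2b and -5.16 (SE 1.13), with an adjusted p of 0.02, for PDF1.2. PDF1.2 lost its call without ssi2 act1 replicate 1, 2 or 3 or ssi2 sid2 replicate 1 or 2 (0.0505 to 0.0792 as adjusted p), while PDF1.2b was called in all alternatives. The 2 genes are close paralogs, and whether their probe sets share signal was not tested.

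For PDF1.2b the double mutants lay on either side of ssi2. Wild type had 801, 6448 and 937 and ssi2 had 394, 101 and 209 for PDF1.2b, so that ssi2 sid2 reached the range of wild type and ssi2 act1 was below all other arrays. For PDF1.2 the ssi2 arrays had 315, 56.1 and 24 and overlapped ssi2 act1, and PDF1.2 lost its call on leaving out single arrays as given above. Of 15 measured defensins and thionins these 2 were called higher in ssi2 sid2 and 1 higher in ssi2 act1, LCR69 (1.12, adjusted p = 0.0368), and LCR69 lost its call without ssi2 act1 replicate 2 or 3 or ssi2 sid2 replicate 1 or 3 or wild type replicate 3 (0.0517 to 0.175 as adjusted p) and with the 6 arrays alone, a pseudocount of 1 or the replicate block (0.0564 to 0.0835). The thionin THI2.1, also jasmonate-induced, was not called (-0.36, adjusted p = 0.812), at 30.1 to 45.8 in ssi2 act1 and 24.7 to 83.7 in ssi2 sid2, both far below ssi2 at 985 to 6065.

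JMT, which methylates jasmonic acid to its volatile ester, had signals of 146, 61.1 and 207 in ssi2 sid2 and 1.18, 1.26 and 1.96 in ssi2 act1. It was near 0 in all ssi2 act1 arrays and in all ssi2 arrays (1.65 to 2.44), and higher in ssi2 sid2 and, unevenly, in wild type (8.25 to 101). The difference of -3.01 (SE 0.50), with an adjusted p of 0.00598, understates a change from so low a level, because 16 was added before the log. MYC4, a transcription factor that switches on jasmonate targets, had 427, 212 and 448 in ssi2 sid2 and 73.9, 95.4 and 95.2 in ssi2 act1, without overlap (-1.80, adjusted p = 0.00987). The call of MYC4 was lost without ssi2 sid2 replicate 1 or 3 (0.0576 and 0.0618 as adjusted p).

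The median over the 12 jasmonate signalling and response genes, from 102 names searched, was -1.35. Of 3 measured synthesis genes, from 40 names searched, 1, JMT, was called in the same direction, with a median of -0.94. The ligase OPCL1, which activates a jasmonate precursor, was not called (-0.94, adjusted p = 0.189), nor were MYC3 (-0.69, adjusted p = 0.393) or the jasmonate-regulated gene JRG21 (-2.29, adjusted p = 0.0662).

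**Figure D2:**
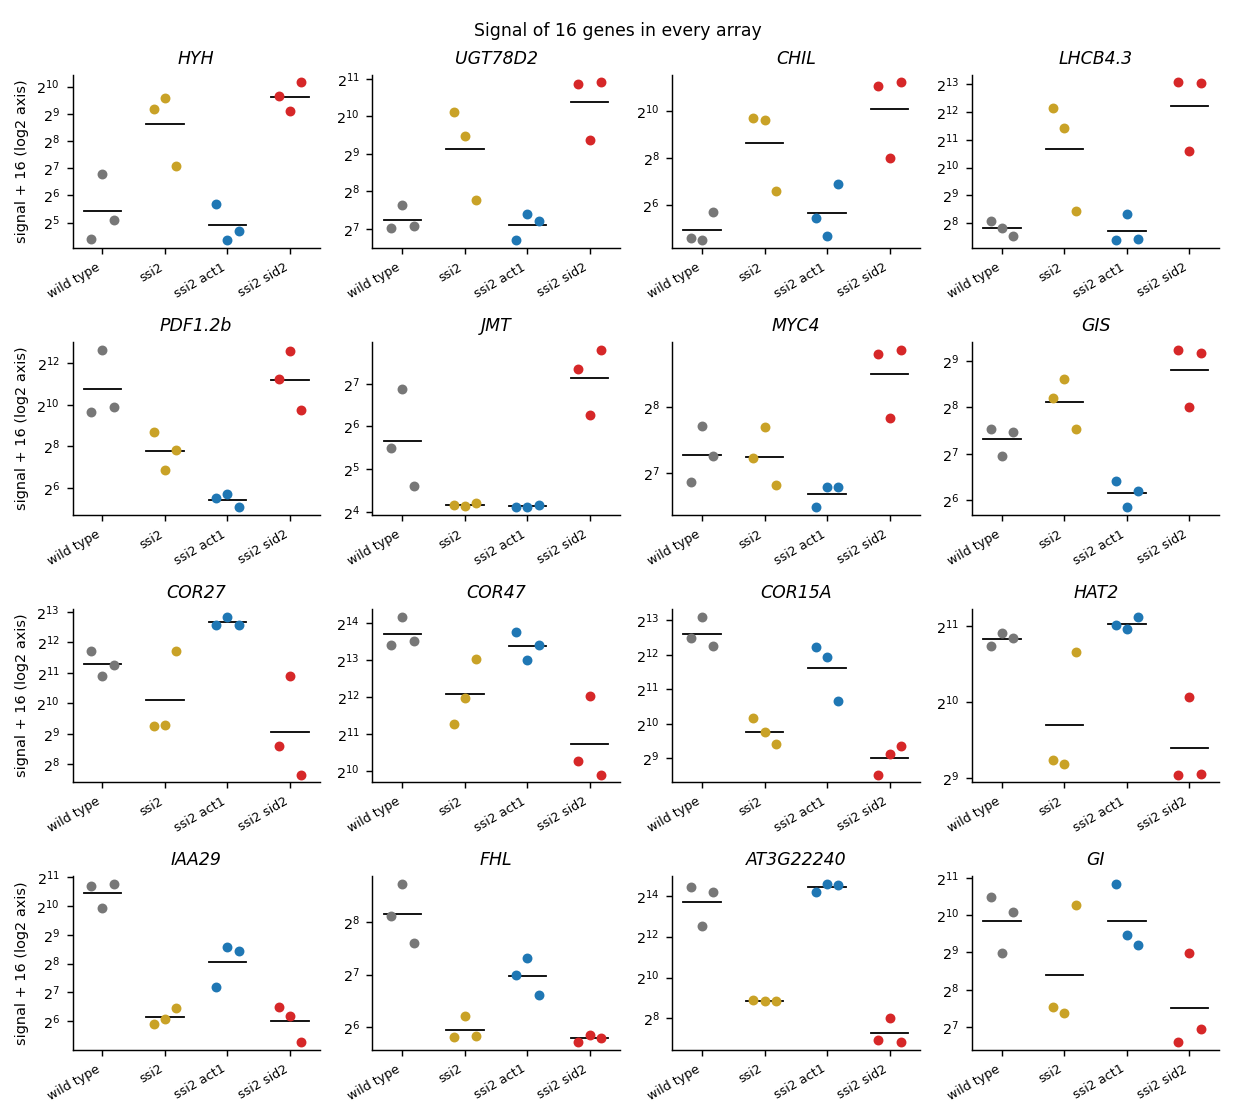
Signal + 16 on a log2 axis (y) for 16 genes in the 3 arrays of each genotype (x), with the mean of log2(signal + 16) as a bar. HYH, UGT78D2, CHIL, LHCB4.3, PDF1.2b, JMT, MYC4 and GIS were higher in every ssi2 sid2 array than in any ssi2 act1 array, and the remaining 8 were lower in every ssi2 sid2 array than in any ssi2 act1 array, with GI not called.

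Of 14 measured cold and dehydration genes 3 (21.4%) were called higher in ssi2 act1 and 1 (7.14%) higher in ssi2 sid2. COR27, a cold-induced repressor that also acts in the clock and in light signalling, had signals of 6077, 7341 and 6068 in ssi2 act1 and 371, 1907 and 187 in ssi2 sid2. COR47, a dehydrin, had 13882, 8196 and 10704 in ssi2 act1 and 1223, 4142 and 944 in ssi2 sid2. COR15A, which protects chloroplast membranes during freezing, had 4727, 3891 and 1609 in ssi2 act1 and 353, 543 and 639.9 in ssi2 sid2. None of the 3 overlapped between the genotypes, and for COR27 and COR47 ssi2 sid2 replicate 2 was well above its own group. The differences were 3.61 (SE 0.77), with an adjusted p of 0.018, for COR27, 2.65 (SE 0.55), with an adjusted p of 0.0156, for COR47 and 2.6 (SE 0.41), with an adjusted p of 0.00466, for COR15A. COR15A was called in every alternative, COR27 lost its call without ssi2 act1 replicate 2 or 3 or ssi2 sid2 replicate 1 or 3 (0.0589 to 0.0928 as adjusted p), and COR47 lost its call without ssi2 act1 replicate 3 or ssi2 sid2 replicate 1 or 3 (0.055 to 0.0861 as adjusted p). Wild type overlapped ssi2 act1 for COR47 (10838 to 18322) and was above every ssi2 act1 array for COR15A (4833 to 8779.8), and for COR27 it was lower than every ssi2 act1 array, at 1877 to 3386. COR15B, the neighbour and relative of COR15A, was not called (0.87, adjusted p = 0.157), nor was the dehydrin LTI30 (1.66, adjusted p = 0.313).

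The 14 cold and dehydration genes, from 111 names searched, had a median of 0.79. The 1 called higher in ssi2 sid2 was STZ, a zinc finger repressor induced by many stresses. It had 1869, 3925 and 1375 in ssi2 sid2 and 409, 350.3 and 449.8 in ssi2 act1, higher in every ssi2 sid2 array (-2.39, adjusted p = 0.0402). STZ lost its call without ssi2 act1 replicate 1, 2 or 3 or ssi2 sid2 replicate 1, 2 or 3 or ssi2 replicate 2 or wild type replicate 1 (0.0533 to 0.121 as adjusted p) and with median centring or a pseudocount of 1 (0.0539 and 0.0659).

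COR27, with its call lost without the 4 arrays named above, was also the 1 called gene of 5 measured clock genes, whose median was 0.64. GI, an evening gene of the clock, had 1814, 691 and 571 in ssi2 act1 and 81.4, 486 and 108 in ssi2 sid2, with the lowest ssi2 act1 array above the highest ssi2 sid2 array by little. It was not called (2.32, adjusted p = 0.127) and was chosen after its values were seen. Both genes follow the time of day in wild-type plants, the labels give no hour of harvest, and its part in these differences was not tested.

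Auxin genes that were called were higher in ssi2 act1. IAA29, an Aux/IAA repressor that rises with shade and warmth, had signals of 129.7, 362 and 327 in ssi2 act1 and 74.0, 57.3 and 23.2 in ssi2 sid2. The genotypes did not overlap (2.06, adjusted p = 0.0144), yet even ssi2 act1 remained below wild type at 951 to 1726. IAA34, of the same family, was higher too (1.18, adjusted p = 0.0197). With HAT2, described above with its call lost on leaving out single arrays, 3 of 18 measured auxin genes were called in this direction and none in the other, and the median was 0.06. The 18 came from 120 names searched. IAA29 lost its call without ssi2 act1 replicate 2 or 3 or ssi2 sid2 replicate 3 (0.0631 to 0.0799 as adjusted p). IAA34 lost its call without ssi2 act1 replicate 2 or 3 or ssi2 sid2 replicate 1 or 2 (0.0576 to 0.0849 as adjusted p). The conjugating enzyme GH3.3 was higher in each ssi2 act1 array, at 372, 98.2 and 220.1 against 22.2, 69.2 and 16.5, and missed the threshold (2.21, adjusted p = 0.0704).

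Of 19 measured expansins 2 were called and of 2 measured ethylene genes 1, all higher in ssi2 act1. EXLA1, an expansin-like protein, had 2954, 4579 and 1407 in ssi2 act1 and 858, 541 and 554 in ssi2 sid2 (2.04, adjusted p = 0.0161), with no overlap. EXLA1 and the expansin EXPA9 (1.08, adjusted p = 0.0279) were the 2 expansins called, beside a family median of -0.02. EXLA1 lost its call without ssi2 act1 replicate 2 or ssi2 sid2 replicate 3 (0.0646 and 0.0829 as adjusted p). EXPA9 lost its call without ssi2 act1 replicate 1, 2 or 3 or ssi2 sid2 replicate 1, 2 or 3 (0.0621 to 0.0879 as adjusted p) and with a pseudocount of 1 (0.0605). None of 10 xyloglucan endotransglucosylases was called, the largest difference being that of XTH19 (-1.21, adjusted p = 0.378). RTE1, which acts on the ethylene receptor ETR1, was the ethylene gene higher in ssi2 act1 (1.14, adjusted p = 0.0427), and RTE1 lost its call without ssi2 act1 replicate 2 or 3 or ssi2 sid2 replicate 1, 2 or 3 or ssi2 replicate 2 or wild type replicate 1 or 3 (0.0591 to 0.174 as adjusted p) and with median centring, the 6 arrays alone, a pseudocount of 1, quantile normalization, the replicate block or the trended prior (0.0516 to 0.0893).

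A pair of cytokinin response regulators was higher in ssi2 sid2. ARR15, a type-A regulator that cytokinin induces and that dampens its signal, had 117, 91.4 and 116 in ssi2 sid2 and 27.6, 22.3 and 4.16 in ssi2 act1, with no overlap (-1.93, adjusted p = 0.00567). RR16, of the same type, had 757, 285 and 636 in ssi2 sid2 and 16.5, 164 and 134 in ssi2 act1 (-2.48, adjusted p = 0.0249), and RR16 lost its call without ssi2 sid2 replicate 1 or 3 (0.112 and 0.112 as adjusted p) and with the 6 arrays alone, a pseudocount of 1 or quantile normalization (0.0533 to 0.0722). They were the 2 called of 8 measured genes of the gibberellin, brassinosteroid and cytokinin list, whose median was -0.26. ARR15 lies on chromosome 1 within 25 measured genes of SID2, and a linked difference between the lines was not tested.

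Of 8 measured genes of salicylic acid action 1 was called. The 8 came from 99 names searched, aliases included, so most names in the list had no match. WRKY53, a factor of senescence and defence that salicylic acid induces, had signals of 406, 859.8 and 352 in ssi2 sid2 and 80.4, 119.7 and 114 in ssi2 act1. Every ssi2 sid2 array, of the line that lacks SID2, was higher (-2.11, adjusted p = 0.00535), and ssi2 was higher still at 1108 to 1434. It was the 1 called gene of the salicylic acid list (median -0.38) and of 7 WRKY factors (median -0.37). The glutaredoxin GRX480, a salicylic acid response gene, was not called (-0.38, adjusted p = 0.711), nor was the salicylate methyltransferase BSMT1 (-1.96, adjusted p = 0.117).

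PUB23, a ubiquitin ligase that dampens immune signalling, was the 1 called of 7 measured pattern-response genes, at 92.1, 156 and 77.3 in ssi2 sid2 and 25.9, 3.32 and 6.24 in ssi2 act1 (-2.20, adjusted p = 0.00778), beside a list median of -0.44. Of 5 senescence genes 2 were called higher in ssi2 sid2, WRKY53 and the yellow-leaf gene YLS5 (-1.32, adjusted p = 0.0124), and the list median was -1.32. YLS5 lost its call without ssi2 sid2 replicate 1 or 3 (0.0687 and 0.0667 as adjusted p) and with median centring (0.0608). Among 6 glucosinolate genes 1 was called, the glucosinolate transporter GTR1 (-1.39, adjusted p = 0.0317), with a median of -1.01. GTR1 lost its call without ssi2 act1 replicate 2 or 3 or ssi2 sid2 replicate 1, 2 or 3 (0.075 to 0.124 as adjusted p) and with a pseudocount of 1 (0.0628).

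CHI, which the annotation lists as a putative chitinase and not as chalcone isomerase, had signals of 4037, 949 and 4355 in ssi2 sid2 and 12, 57.7 and 457 in ssi2 act1. The 3 ssi2 act1 arrays spread widely, though none reached ssi2 sid2 (-4.70, adjusted p = 0.0203). CHI lost its call without ssi2 act1 replicate 1 or 2 or ssi2 sid2 replicate 1 or 3 (0.0639 to 0.102 as adjusted p). The gene was chosen as 1 of the called genes of largest difference that have a symbol, a rule added after the values were seen. The receptor channel GLR2.7, chosen by the same rule, was close to 0 in ssi2 act1, at 3.45, 5.23 and 1.99, and had 189, 211 and 183 in ssi2 sid2 (-3.43, adjusted p = 0.000496), with wild type between them at 34.6 to 84.0.

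Of 22 measured sugar and starch genes 2 were called, both higher in ssi2 sid2, with a list median of -0.45. AMY1, a secreted alpha-amylase that degrades starch, had 1447, 212 and 1318 in ssi2 sid2 and 52.7, 41.3 and 36.6 in ssi2 act1 (-3.69, adjusted p = 0.00666), with replicate 2 of ssi2 sid2 the lowest of its group and still above ssi2 act1. SWEET2, a vacuolar sugar transporter, was also higher (-2.79, adjusted p = 0.0405). SWEET2 lost its call without ssi2 act1 replicate 1, 2 or 3 or ssi2 sid2 replicate 1, 2 or 3 or ssi2 replicate 2 or wild type replicate 3 (0.0503 to 0.154 as adjusted p) and with median centring, a pseudocount of 1, a pseudocount of 64 or quantile normalization (0.0519 to 0.0635). The sucrose-phosphate synthase gene ATSPS4F, named by the symbol rule above, had 942, 2228 and 1837 in ssi2 sid2 and 105, 46.6 and 29.6 in ssi2 act1 (-4.50, adjusted p = 0.00308).

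Of 13 measured heat and oxidative stress genes 3 (23.1%) were called, all higher in ssi2 sid2, and the median of the list was -0.21. They were the stromal ascorbate peroxidase SAPX (-2.80, adjusted p = 0.0195), the glutathione reductase GR1 (-2.42, adjusted p = 0.00845) and the mitochondrial NADH dehydrogenase NDB2 (-2.03, adjusted p = 0.00613). NDB2 had 784, 445 and 686 in ssi2 sid2 and 154, 104 and 169.5 in ssi2 act1, and its groups did not overlap. SAPX lost its call without ssi2 act1 replicate 2 or 3 or ssi2 sid2 replicate 1 or 3 (0.0503 to 0.0943 as adjusted p) and with the 6 arrays alone (0.058). GR1 lost its call without ssi2 sid2 replicate 3 (0.0523 as adjusted p).

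Several families were grouped by name only after the values were seen, and their counts are descriptions. Of 11 NRT1/PTR family transporters, which carry nitrate, peptides and hormones, 4 were called and all were higher in ssi2 sid2. The 4 became 1 without ssi2 act1 replicate 2 or ssi2 sid2 replicate 1 or 3, and 2 without ssi2 act1 replicate 3 or ssi2 sid2 replicate 2 and with a pseudocount of 1. NPF3.1 (AT1G68570) had 2063, 827 and 2350.0 in ssi2 sid2 and 80.8, 77.4 and 79.2 in ssi2 act1, below all wild-type arrays at 613 to 653 (-4.08, adjusted p = 0.000214). NPF6.4 (AT3G21670) was higher in ssi2 sid2 as well (-3.68, adjusted p = 0.0136), and AT3G21670 lost its call without ssi2 act1 replicate 2 or ssi2 sid2 replicate 1 or 3 (0.058 to 0.0667 as adjusted p).

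Of 6 sulphur genes in a group made the same way 3 were called higher in ssi2 sid2. SAL2, a phosphatase of the sulphur by-product PAP, had 1107, 290.3 and 1096 in ssi2 sid2 and 33.9, 35.7 and 58.5 in ssi2 act1 (-3.65, adjusted p = 0.0016), with ssi2 at 1139 to 1581. Sulphite reductase SIR (-2.21, adjusted p = 0.0157) and the related phosphatase HL (-1.58, adjusted p = 0.0427) followed. SIR lost its call without ssi2 act1 replicate 2 or 3 or ssi2 sid2 replicate 1 or 3 (0.0588 to 0.0843 as adjusted p). HL lost its call without ssi2 act1 replicate 2 or 3 or ssi2 sid2 replicate 1, 2 or 3 or ssi2 replicate 1 or wild type replicate 1 (0.0554 to 0.151 as adjusted p) and with median centring, a pseudocount of 1 or the replicate block (0.0524 to 0.0755).

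Of 11 prenylated Rab acceptors, membrane proteins of vesicle traffic also grouped after the fact, 5 were called higher in ssi2 act1 and none higher in ssi2 sid2, with a median of 1.03. Without ssi2 sid2 replicate 3 none of the 5 was called, without its replicate 1 only 1 was, without its replicate 2 or ssi2 replicate 2 there were 3, and without ssi2 act1 replicate 2 or 3 there were 2. A pseudocount of 1 left 2 and one of 64 left 3. PRA1.G2 (1.83, adjusted p = 0.0106) and PRA8 (1.46, adjusted p = 0.00907) had the smallest adjusted p-values of the 5. PRA8 had signals of 2493, 4656 and 3647 in ssi2 act1 and 1366, 1347 and 1084 in ssi2 sid2, without overlap. PRA1.G2 lost its call without ssi2 sid2 replicate 1 or 3 (0.0517 and 0.0623 as adjusted p). PRA8 lost its call without ssi2 sid2 replicate 3 (0.0561 as adjusted p).

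Of the TRICHOME BIREFRINGENCE-LIKE family, several members of which acetylate cell wall polymers, 4 of 24 were called higher in ssi2 sid2 and 1 higher in ssi2 act1. The 4 became 1, TBL37, without ssi2 act1 replicate 2 or 3 or ssi2 sid2 replicate 1 or 3, and 2 with the 6 arrays alone or without the dimmest probe sets. The 1 higher in ssi2 act1, AT5G06700, lost its call without ssi2 act1 replicate 1, 2 or 3 or ssi2 sid2 replicate 1, 2 or 3 or ssi2 replicate 1, 2 or 3 or wild type replicate 3 (0.0532 to 0.155 as adjusted p) and with a pseudocount of 1, a pseudocount of 64 or the trended prior (0.0514 to 0.086). TBL26 had the largest difference, at 1867, 261 and 2988 in ssi2 sid2 and 89.7, 96.1 and 72.3 in ssi2 act1 (-3.52, adjusted p = 0.0196), and TBL26 lost its call without ssi2 act1 replicate 2 or 3 or ssi2 sid2 replicate 1 or 3 (0.0613 to 0.0992 as adjusted p). TBL37 was called in every alternative (-1.37, adjusted p = 0.00887).

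Other groups were made by name after the values were seen. The calls higher in ssi2 sid2 and in ssi2 act1 were 2 and 1 of 22 beta-glucosidases, 2 and 1 of 29 serine carboxypeptidase-like proteins, 2 and 1 of 42 AGAMOUS-like factors, 2 and 0 of 8 glutamate receptors and 1 and 0 of 8 calmodulin-like proteins. All genes gave 3.23% and 2.5%. The AGAMOUS-like shares, 4.76% and 2.38%, were near these. Those of the carboxypeptidase-like proteins were 6.90% and 3.45%, and of the beta-glucosidases 9.09% and 4.55%. These 5 groups thus held 12 calls. Without ssi2 act1 replicates 1, 2 and 3 in turn 4, 3 and 4 calls were made in them, without those of ssi2 sid2 2, 8 and 3, and without ssi2 replicate 2 8. Median centring and a pseudocount of 1 gave 7 each. Without ssi2 act1 replicate 2 or ssi2 sid2 replicate 1 no serine carboxypeptidase-like protein or AGAMOUS-like factor was called. Of 5 Hsp70, Hsp40 and Fes1 genes, the last being exchange factors for Hsp70 proteins, 1 was called in each direction. Of 6 response regulators ARR15 and RR16, described above with the losses of RR16, were called. Of 8 genes with light, shade or far-red in the name 3 were higher in ssi2 sid2, which were HYH, AFR and LHCB4.3, and FHL was higher in ssi2 act1. Without ssi2 sid2 replicate 1 or 3 the calls of AFR, LHCB4.3 and FHL were all lost.

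Of 3 trichome markers matched by name, from 23 names searched, 2 were called, both higher in ssi2 sid2. GIS, a zinc finger protein that promotes trichome initiation, had signals of 592, 240.4 and 562 in ssi2 sid2 and 69.3, 41.5 and 57.8 in ssi2 act1. TRY, a small MYB protein that inhibits trichome fate in neighbouring cells, had 708, 395 and 753 in ssi2 sid2 and 47.2, 42.1 and 26.3 in ssi2 act1. Both were higher in every ssi2 sid2 array, with differences of -2.65 (SE 0.38), with an adjusted p of 0.00334, for GIS and -3.51 (SE 0.68), with an adjusted p of 0.0116, for TRY. TRY lost its call without ssi2 sid2 replicate 1 or 3 (0.0576 and 0.0633 as adjusted p). The summed signal of the 3 markers was 291 to 389 in ssi2 act1 and 735 to 1449 in ssi2 sid2. The third, the cell cycle inhibitor SIM, differed by 0.99 and was not called. TBR was also among the names searched and was not matched. AT5G06700, the locus of TBR, is counted above in the TRICHOME BIREFRINGENCE-LIKE family. That gene was called higher in ssi2 act1 (1.39, adjusted p = 0.0492), with the losses given there. In whole leaves a change in the number of such cells and a change in RNA per cell cannot be told apart.

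Measured markers of other organs and cells were not called: none of 4 root, 3 flower, pollen and seed, 3 guard cell and 3 vascular markers. The names searched were 34, 50, 22 and 39, in that order, so most markers had no match. Their summed signals in ssi2 act1 and ssi2 sid2 were 91.7 to 137 and 161 to 265 for root, 437 to 766 and 753 to 1268 for flower, pollen and seed, 193 to 274 and 288 to 325 for guard cells, and 601 to 1120 and 388 to 724 for vascular markers. The largest difference among the root markers was that of JAL23 (-1.96, adjusted p = 0.17), which the jasmonate list also holds, and that among the guard cell markers was of SPCH (-0.81, adjusted p = 0.267). Organelle-encoded genes had 1 call among 69, the plastid gene rps16 (-1.53, adjusted p = 0.0258), and a median of 0.01. The rps16 call was lost without ssi2 act1 replicate 2 or 3 or ssi2 sid2 replicate 1 or 3 (0.0639 to 0.13 as adjusted p) and with a pseudocount of 1 (0.0566).

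**Figure D3:**
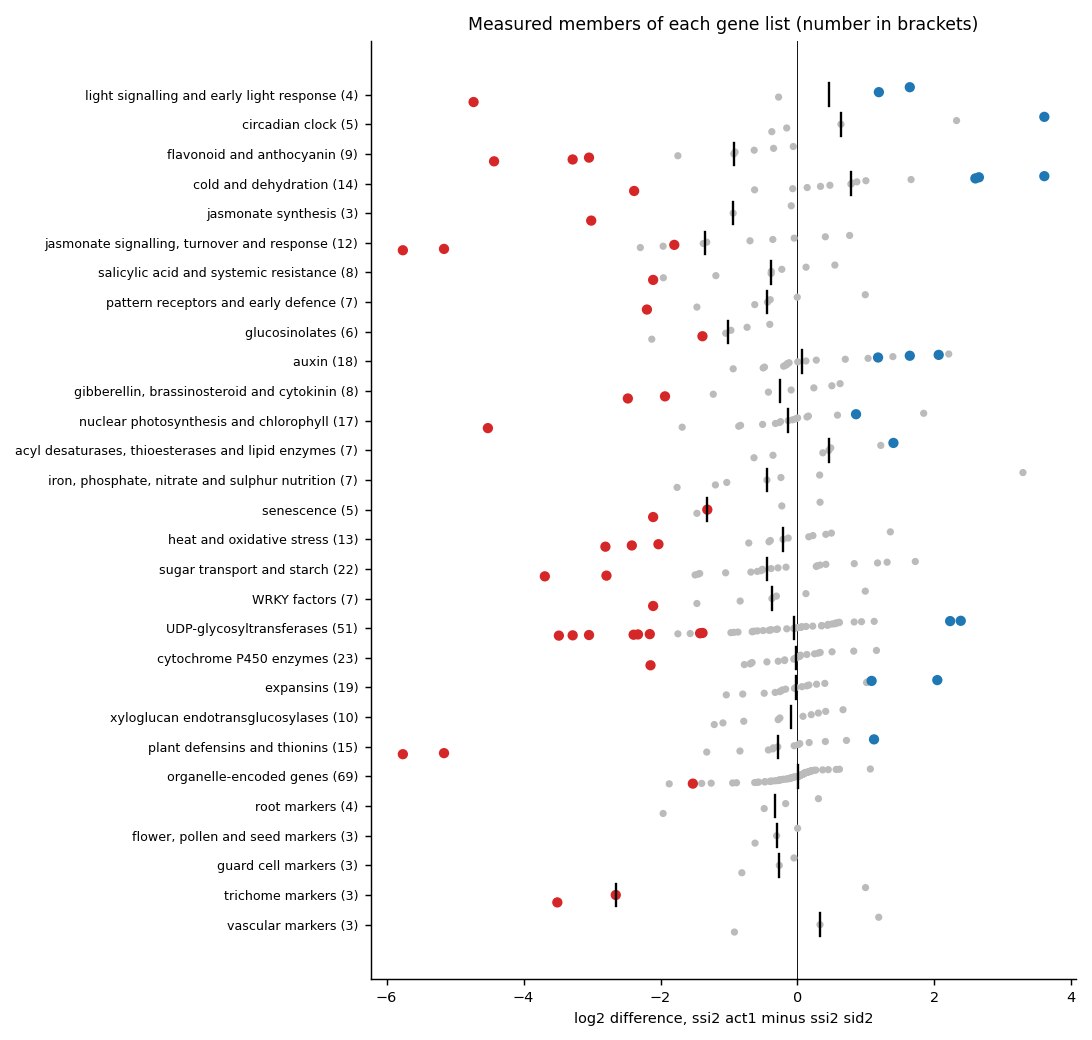
Log2 difference between ssi2 act1 and ssi2 sid2 (x axis) for every measured member of each gene list with 3 or more members (y axis, number measured in brackets), red and blue where called and grey where not, with the list median as a bar. Called cold and auxin members other than STZ lie on the ssi2 act1 side, and called flavonoid, jasmonate, trichome, sugar and oxidative stress members on the ssi2 sid2 side. AT5G06700 (TBR), called higher in ssi2 act1, was not matched to the trichome list and is not drawn there.

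Lipid genes, of the pathway that the ssi2 and act1 mutations affect, gave 1 call. Of 7 measured members of the desaturase, thioesterase and lipid enzyme list this was AT3G02630, higher in ssi2 act1 at 1543, 1014 and 2309 against 544, 687 and 498 (1.4, adjusted p = 0.0258), and the list median was 0.46. AT3G02630 lost its call without ssi2 act1 replicate 1 or 3 or ssi2 sid2 replicate 1 or 3 (0.0605 to 0.119 as adjusted p) and with a pseudocount of 1 (0.0542). None of 7 nutrition genes was called. The largest of them, BHLH101, an iron-deficiency factor, had 1364, 2249.6 and 2714 in ssi2 act1 and 56.4, 1647 and 59.1 in ssi2 sid2, so that 1 ssi2 sid2 array fell within the ssi2 act1 range (3.29, adjusted p = 0.0614). Single measured members of the abscisic acid, NAC and immune receptor lists were not called: HVA22C (-0.41), NAC014 (0.26) and CSA1 (0.23). No gene with a probe set of its own was matched to the camalexin, MYB, AP2/ERF and receptor-like kinase lists. All but the camalexin list were matched by the start of the name. Members under other names, such as the MYB protein TRY, were therefore not counted there.

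Among genes with a probe set of their own, most of the largest differences belonged to loci that the annotation gives no name. AT3G22240 had signals of 18436, 24512 and 23422 in ssi2 act1 and 109, 248 and 100.4 in ssi2 sid2, and wild type, at 5932 to 21751, was on the side of ssi2 act1. The difference was 7.13 (SE 0.45), with an adjusted p of 2.47e-05, the largest on the ssi2 act1 side. AT1G50040 had 764, 1132 and 388 against 32.1, 30.7 and 15.1 (4.11, adjusted p = 0.00109), and AT3G61160 had 1750.1, 1753 and 3034 against 108, 214 and 39.0 (4.19, adjusted p = 0.00598). All 3 were called in every alternative and none overlapped.

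AT4G16000, with 1712, 3335 and 1129.9 against 101, 189 and 65.8, and AT3G15440, with 336, 463 and 319 against 10, 73.4 and 0.631, completed the 6 largest with COR27. For AT4G16000 the difference was 3.91, adjusted p = 0.0133, and AT4G16000 lost its call without ssi2 act1 replicate 2 or ssi2 sid2 replicate 1 or 3 (0.0582 to 0.0734 as adjusted p). For AT3G15440 it was 3.5, adjusted p = 0.0195, and AT3G15440 lost its call without ssi2 act1 replicate 2 or 3 or ssi2 sid2 replicate 1 or 3 (0.0586 to 0.104 as adjusted p) and with a pseudocount of 1 (0.058). The call of COR27 was lost as given above. The next 6 were AT1G30250 (3.48), AT2G05540 (3.44), AT2G29170 (3.35), AT5G62280 (3.19), AT5G57760 (3.18) and AT5G04750 (3.1). Of these AT2G05540 lost its call without ssi2 act1 replicate 1, 2 or 3 or ssi2 sid2 replicate 1 or 3 or ssi2 replicate 2 or wild type replicate 1 (0.05 to 0.155 as adjusted p) and with a pseudocount of 1 (0.0511), and AT5G62280 lost its call without ssi2 sid2 replicate 1 or 3 (0.0517 and 0.0559 as adjusted p).

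Further genes on the ssi2 act1 side, except bHLH94, were taken by the symbol rule above. AKINBETA1, a subunit of the SnRK1 energy-sensing kinase, had 5756, 7068 and 6392 in ssi2 act1 and 525, 2287 and 480.0 in ssi2 sid2 (2.91, adjusted p = 0.016), and AKINBETA1 lost its call without ssi2 act1 replicate 2 or 3 or ssi2 sid2 replicate 1 or 3 (0.0566 to 0.09 as adjusted p). WLIM1, which bundles actin, had 2611, 3568 and 4624 against 917, 1092 and 806 (1.90, adjusted p = 0.00778). The sterol enzyme CPI1 was higher by 1.66 (SE 0.29), the GAGA-binding factor BPC1 by 1.68 (SE 0.28) and ZW9 by 2.47 (SE 0.31), all called in every alternative. The bHLH factor bHLH94 (AT1G22490) was chosen after its values were seen. With 374, 375 and 428 against 25, 96.3 and 28.2, it was above all wild-type arrays (107 to 149) in ssi2 act1 and below them in ssi2 sid2 (2.79, adjusted p = 0.00181).

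On the ssi2 sid2 side, the largest called difference over all probe sets was -7.50, at a probe set outside the genes named here. Among the named genes, AT5G42760 had signals of 4042, 1532 and 4077 against 15.1, 60.6 and 17.3 in ssi2 act1 (-6.10, adjusted p = 0.00483). AT5G04380 had 1750.1, 1595 and 2128 against 1.56, 15.7 and 20.4 (-6.07, adjusted p = 0.00176). AT2G15020 had 1335, 738 and 1145 against 1.97, 2.11 and 2.09 (-5.87, adjusted p = 0.00449). In all 3 the ssi2 act1 arrays had low signals, wild type was low too, and ssi2 replicates 1 and 2 were raised while ssi2 replicate 3 was not.

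AT1G43910, with 2423, 389 and 1678 against 10.2, 9.67 and 45.6, completed the 6 largest on this side with PDF1.2b and PDF1.2, whose call was lost without single arrays as given above. AT1G43910 was called in every alternative (-5.10, adjusted p = 0.00308). The next were AT5G55570 (-5.10), AT1G13650 (-4.91), AT2G27420 (-4.87), AT1G06000 (-4.84), AT1G72920 (-4.83) and HYH. AT5G55570 lost its call without ssi2 sid2 replicate 1 or 3 (0.0613 and 0.072 as adjusted p), and AT1G06000 lost its call without ssi2 sid2 replicate 1 or 3 (0.0577 and 0.0633 as adjusted p). AT1G72920 had 653, 809 and 556 in ssi2 sid2, 69.4 to 89.6 in wild type and 0.716 to 2.41 in ssi2, with ssi2 act1 at 25.5, 2.21 and 2.26.

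The wild type and ssi2 arrays placed these differences among the 4 genotypes. For each called probe set the midpoint between the double mutants was taken, and each of the other genotypes was placed on the side of the double mutant it was on. Of the 555 probe sets higher in ssi2 act1, wild type was on the ssi2 act1 side in 386 (69.5%) and ssi2 on the ssi2 sid2 side in 401 (72.3%). Of the 901 higher in ssi2 sid2 the numbers were 653 (72.5%) and 590 (65.5%). Both held together, wild type with ssi2 act1 and ssi2 with ssi2 sid2, in 299 and 428. HYH, UGT78D2, GIS, COR15A and ZW9 are of that kind.

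In most of the other called probe sets wild type and ssi2 were on the same side. Wild type and ssi2 were both on the ssi2 act1 side in 87 of those higher in ssi2 act1 and in 225 of those higher in ssi2 sid2, as for MYC4, whose call was lost without either of 2 ssi2 sid2 arrays. Both were on the ssi2 sid2 side in 102 and 162, as for NPF3.1 and UGT85A4. The reverse pattern, wild type with ssi2 sid2 and ssi2 with ssi2 act1, was found in 67 and 86, among them PDF1.2b. JMT was counted there too, but its wild-type mean lay almost at the midpoint. Its wild-type arrays, at 29.3, 101 and 8.25, fell on both sides. These are placements of means with no test, and the double mutant arrays that define the midpoint also chose the probe sets. The means placed include wild type replicate 2 and ssi2 replicate 3, which stood apart from their groups.

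**Figure D4:**
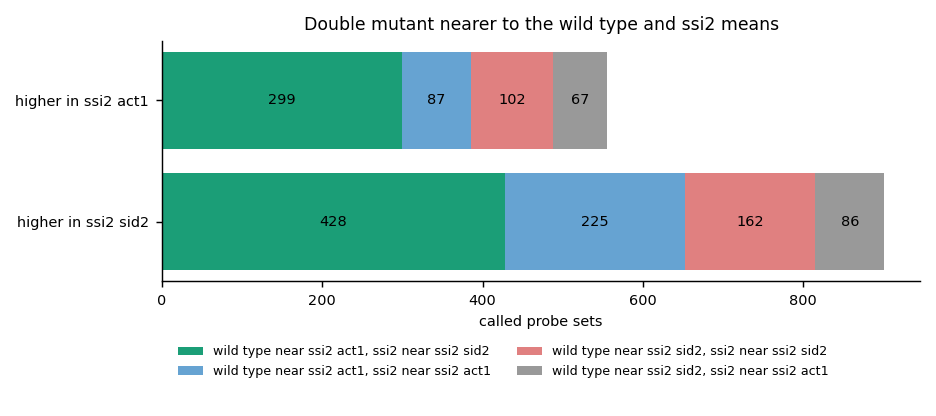
Number of called probe sets (x axis) higher in each double mutant (y axis), split by the double mutant on whose side of the midpoint the wild type and ssi2 means lay. In 299 of 555 and 428 of 901 wild type was with ssi2 act1 and ssi2 with ssi2 sid2.

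The share of measured genes called lay between 5.21% on chromosome 2 and 6.47% on chromosome 3, against 5.73% of all. Among the 50 measured genes nearest to each mutated locus, 25 on either side, 7 were called beside SID2, 2 beside ACT1 and 1 beside SSI2. The last was CHI, whose call was lost without any of 4 arrays named above. ARR15 was 1 of the 7 beside SID2. No test was made on these counts, and the labels do not give the parental lines of the double mutants.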

How the data were processed

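RNA from 12 leaf samples was hybridised to Affymetrix arrays, 3 for each of 4 genotypes. The authors deposited linear signal intensities, made with Affymetrix Expression Console 1.0 per the submitters' processing notes. Its summary method is not given in the sources used here. Every array's trimmed mean was close to 500.1, so the deposited scaling was kept. Array number limits the precision. Of 22810 probe sets 64 controls were left out. Probe sets were named from the platform annotation, with symbols updated through a RefSeq table of TAIR10.1: 13513 had 1 gene, 503 several and 8730 none. Of the 13513, 13436 matched the table.

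Values were transformed to log2(signal + 16), which understates changes of dim genes. All 12 arrays were fitted in limma 3.58.1 (R 4.3.3) with a mean per genotype, and moderated two-sided tests received Benjamini-Hochberg adjustment across 22746 probe sets. The fit was run on simulated data with independent noise of equal spread in every array. Such data do not copy departures of whole arrays, so the run does not cover them. A gene with several probe sets was represented by the brightest. Chosen for description were the 12 largest called differences in each direction without overlap, up to 6 called members of each list, or the largest difference where none was called, and further genes described as chosen after their values were seen. Members and lists were chosen with earlier results of these data known, and support nothing by themselves. Promoter sequences were not analysed here.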

Additional observations from a re-analysis of the deposited data

How the results depend on the processing

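Counts of probe sets higher in ssi2 act1 and in ssi2 sid2 were 555 and 901 and depended mostly on which arrays entered. Array weights gave 2280 and 2386, and leaving out wild type replicate 2 and ssi2 replicate 3, which stood apart from their groups, gave 1110 and 1566. A pseudocount of 1 gave 303 and 665. Leaving out 1 array at a time gave 103 to 819 and 313 to 1253. All other alternatives kept both counts within 1.5 times: median centring, quantile normalization, leaving out the dimmest 40% of probe sets, the 6 compared arrays alone, a trended and robust variance prior, a pseudocount of 64 and the replicate block. The labels number the replicates, but deviations of arrays with the same number correlated at -0.38, -0.25 and -0.05, so the numbers were not taken as pairs; with the replicate number as a block the counts were 402 and 784. Of 114 called genes chosen for description 43 kept their call in every one of the 22 alternatives that tested them. Not all of the chosen genes are named in the text. A pseudocount of 1 ended 35 of the calls, median centring 15, the replicate block 15, the 6 arrays alone 11, quantile normalization 10, a pseudocount of 64 9 and the trended prior 7. None of the differences of all 146 chosen genes, called or not, changed sign. The cause of these changes was not tested. The 3 arrays a genotype limit what can be called, and dim genes near a signal of 16 have compressed differences. A promoter motif search was not run.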

Other observations

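Some further called genes, chosen after their values were seen, have known roles in protein folding, ascorbate, wax and flowering time. Hsp70-2 and Fes1B are the 2 called members of the Hsp70, Hsp40 and Fes1 group, and BGLU40 is 1 of the called beta-glucosidases counted above. Hsp70-2, a cytosolic chaperone, had signals of 1179, 411 and 900.2 in ssi2 sid2 and 80.7, 42.1 and 14.2 in ssi2 act1, with no overlap (-3.81, adjusted p = 0.00367 in limma). SP1L4, a microtubule-associated protein of the SPIRAL1 family, was higher in ssi2 sid2 as well (-3.75, adjusted p = 0.00449), and so was the beta-glucosidase BGLU40 (-2.76, adjusted p = 0.00354). Fes1B, a nucleotide exchange factor for Hsp70 proteins, ran the other way, at 1684, 1185 and 1764 in ssi2 act1 against 254, 534 and 166 (2.36, adjusted p = 0.0145), and Fes1B lost its call without ssi2 act1 replicate 3 or ssi2 sid2 replicate 1 or 3 (0.0593 to 0.0821 as adjusted p). DEWAX (AT5G61590), a repressor of cuticular wax genes, was higher in ssi2 act1 (1.56, adjusted p = 0.0134), and AT5G61590 lost its call without ssi2 act1 replicate 2 or ssi2 sid2 replicate 1 or 3 (0.0561 to 0.0769 as adjusted p).

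VTC4, a phosphatase of ascorbate synthesis, had 3075, 1634 and 2997 in ssi2 sid2 and 410.3, 576 and 735 in ssi2 act1 (-2.11, adjusted p = 0.00829), and VTC4 lost its call without ssi2 sid2 replicate 3 (0.0515 as adjusted p). AOR, a plastid reductase of reactive carbonyls, had 7731, 6195 and 8177 against 1411, 783 and 940.2 (-2.83, adjusted p = 0.0109), and AOR lost its call without ssi2 act1 replicate 2 or ssi2 sid2 replicate 1 or 3 (0.0502 to 0.0591 as adjusted p). The flowering repressor SNZ was higher in ssi2 sid2 (-1.88, adjusted p = 0.0326), and SNZ lost its call without ssi2 act1 replicate 2 or 3 or ssi2 sid2 replicate 1 or 3 (0.104 to 0.152 as adjusted p) and with a pseudocount of 1 (0.0612). In each of these 3 genes every ssi2 sid2 array was above every ssi2 act1 array.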
